A study of Mus musculus with 22 samples.

Results

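Sprouty and Spred proteins and the product of Errfi1 (also called Mig6) are inhibitors that cells make or activate in response to receptor tyrosine kinases and that then dampen those receptors. The genes considered are Spry1, Spry2, Spry4, Spred1, Spred2, Spred3 and Errfi1, chosen by name as a family, with earlier results of these data known. Spry3, another Sprouty gene, was not among them and is counted below with other feedback inhibitors. A probe carried the symbol of 6 of these 7 genes, 8 probes in all, out of 21946 genes and 46237 probes measured. Spry1 had no probe annotated to it and is not analysed here. For a gene with several probes the main value was that of the probe with the highest mean signal. Such a choice concerned only Spred2, which had 3 probes.

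Total RNA of the dentate gyrus (DG), the input region of the hippocampus and home of the granule cells, of 22 adult male mice was measured on Illumina MouseWG-6 v2.0 arrays, 1 array for each mouse. CTR mice were Srf f/f littermates, in which loxP sites flank the gene of serum response factor, a transcription factor of immediate-early genes. KO mice were Srf f/f;CaMKCreERT2, in which an inducible Cre recombinase acts in excitatory forebrain neurons. Both genotypes received tamoxifen, which switches the recombinase on. Kainic acid (KA), an agonist of a class of glutamate receptors that evokes status epilepticus (SE), was injected intraperitoneally at 35 to 50 mg/kg, and the dose of each animal was not stated. Tissue was taken 6 h after the seizures or after saline. The groups held 6 CTR mice given saline, 5 CTR mice given KA, 6 KO mice given saline and 5 KO mice given KA. Glia, vessels and interneurons keep Srf in KO mice, and in such bulk tissue fewer cells of a type and less RNA per cell cannot be told apart.

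A growth factor that binds its receptor tyrosine kinase starts a relay through adaptor proteins, Ras, Raf, MEK and ERK, which ends in new transcription. Errfi1 protein binds the kinase domain of receptors of the EGF receptor family and blocks their activation. Sprouty proteins act between the receptor and Raf, and Spred proteins bring the Ras inactivator neurofibromin to the membrane. In neurons the same relay is driven by neurotrophins and by calcium entry during firing, and several of these inhibitors are themselves induced by ERK.

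The deleted gene was measured first. Srf (probe ILMN_2988299) had a log2 signal between 11.73 and 12.62 in the 11 CTR mice and between 10.95 and 11.59 in the 11 KO mice, with no overlap. It was lower in KO mice by 1.04 after saline (limma adjusted p = 1.3e-05) and by 0.83 after KA (adjusted p = 1.1e-05). Log2 signals over all probes lay between 6.69 and 16.12, with medians of the single arrays between 7.86 and 7.91, and arrays of 1 group correlated at 0.965 to 0.995. The median of all signals, 7.88, is near the bottom of the range, so a fold change of a dim probe may be understated. A gene was called as changed when its adjusted p was under 0.05 and its change more than 1.5-fold. The interaction, the response to KA in KO mice minus that in CTR mice, was called at an adjusted p under 0.01. Adjusted p-values came from limma with Benjamini-Hochberg adjustment over all 46237 probes.

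Of the 6 measured genes, Errfi1, Spred2 and Spry4 rose after KA in CTR mice and in KO mice, and after KA all 3 had a lower signal in KO mice. For Spred2 the lower signal was called on its main probe and not on its other probes. Errfi1 had the response that differed between the genotypes by the test of the interaction, at its stricter threshold of an adjusted p under 0.01. Spry4 did not pass that threshold (limma adjusted p = 0.017). None of the 6 differed between the genotypes after saline. Spred1 rose by less than the fold threshold in CTR mice, Spry2 fell by less than it, and Spred3 passed no test.

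Counted over the genes, 3 of 6 were called higher after KA in CTR mice, where 8.88% of all 21946 genes were called higher. In KO mice the same 3 of 6 were called higher, against 4.2% of all genes. After KA 3 of 6 were lower in KO than in CTR mice, against 3.74%, with Spred2 called on its main probe only. The interaction was called for 1 of 6, toward a smaller response in KO mice, against 1.71% of all genes in that direction. After saline 0 of 6 were called by limma or under any alternative run, against 0.00456% of all genes by limma, and the lowest unadjusted p of the 6 was 0.20. Arrays after KA lay wholly above those after saline in CTR mice for 4 of the 6, with Spred1 as the fourth, against 9.06% of all genes. In KO mice this held for 3 of 6, against 7.29%, and KO arrays lay wholly below CTR arrays after KA for 2 of 6, Errfi1 and Spry4, against 3.42%.

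Start-site windows of 6 of the 7 genes, all but Spry4, were used from the RefSeq promoter table (GRCm38.p6). The 250 bases before each start were searched for short motifs. Errfi1 has 2 annotated starts, which made 7 windows. The pair printed here, of the 2 genes with the largest rise in CTR mice, are those in which a cyclic AMP response element (CRE) or its core was found. A CRE is the sequence bound by CREB, a factor activated by calcium and cyclic AMP in neurons. The Errfi1 window lies before its downstream start, at chr4:150854820-150855069 on the plus strand, and the Spred2 window at chr11:19924192-19924441 on the plus strand. Capitals mark the full CRE (TGACGTCA) and a TATA box (TATAAA) in Errfi1, and the CRE core (TGACG, here read on the minus strand) in Spred2.
Errfi1: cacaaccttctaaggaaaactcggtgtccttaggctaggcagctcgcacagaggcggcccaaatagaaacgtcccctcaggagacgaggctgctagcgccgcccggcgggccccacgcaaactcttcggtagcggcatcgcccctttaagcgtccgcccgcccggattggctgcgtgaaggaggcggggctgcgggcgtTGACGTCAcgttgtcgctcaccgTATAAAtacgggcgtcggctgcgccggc
Spred2: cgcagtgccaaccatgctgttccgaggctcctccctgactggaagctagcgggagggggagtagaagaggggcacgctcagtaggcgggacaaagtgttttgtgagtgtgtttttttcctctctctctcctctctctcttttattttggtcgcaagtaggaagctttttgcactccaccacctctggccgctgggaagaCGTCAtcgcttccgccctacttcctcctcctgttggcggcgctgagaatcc
The full CRE starts 51 bases before the Errfi1 start and the TATA box 28 bases before it, while the core in Spred2 also starts 51 bases before the start. Over all 32851 windows of the table, searched on both strands, 1.55% hold the full CRE and 17.8% the core, which is part of the full CRE. Of the 7 windows here, 1 holds the full CRE and 2 the core, too few windows to compare with these shares. A link of the motif to the rise after KA was not tested. The window before the upstream start of Errfi1 holds none of the motifs searched. The TATA box, searched on the strand of the gene, is in 7.59% of them. A CArG box, the SRF-binding sequence written as CC, 6 bases of A or T, and GG, is in 1.47% of all windows and in 0 of the 7 windows of these genes. TGANTCA, an AP-1 motif, is in 6.75% of all windows and likewise in 0 of these 7. Such matches describe letters in a short window and do not show binding. At shares this low a count of 0 in 7 windows says little, and only exact matches within 250 bases were searched. It does not show that the genes searched lack such sites.

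Errfi1 encodes the adaptor-like inhibitor of EGF receptor family kinases (chromosome 4, 150853796 to 150868889, GRCm38.p6). After saline its log2 signal (ILMN_2714031) in CTR mice ranged from 12.33 to 12.79, with a median of 12.56. KA brought the 5 CTR arrays to 14.72, 15.21, 15.25, 15.25 and 15.70. In KO mice given saline the lowest value was 12.30, the median 12.47 and the highest 12.65. The 5 KO arrays after KA read 13.05, 13.17, 13.77, 13.30 and 13.55. The KA arrays of each genotype thus lay above all of its saline arrays, and the highest KO array after KA stayed below the lowest CTR array after KA.

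In CTR mice KA raised Errfi1 by 2.66 log2 units (standard error 0.14, adjusted p = 1.2e-12), which is 6.34-fold. This placed it at rank 77 of 21946 genes ordered from the largest rise. The rise in KO mice was 0.90 (standard error 0.14, adjusted p = 5.4e-05), or 1.86-fold, which on the log2 scale is 33.7% of that in CTR mice. After KA the KO mean was lower by 1.86 (standard error 0.14, adjusted p = 1.4e-08), or 3.62-fold, at rank 38 of 21946 counted from the lowest difference. After saline the difference was −0.09 (95% confidence interval −0.36 to 0.18, adjusted p = 1.0). Errfi1 was the one member with a called interaction, −1.77 (95% confidence interval −2.17 to −1.37, adjusted p = 9e-06). The levels therefore ran from CTR after KA through KO after KA to the saline groups, which overlapped each other. The comparison of the genotypes after KA uses the same CTR and KO arrays as the 2 responses and is not a separate experiment.

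**Figure D1:**
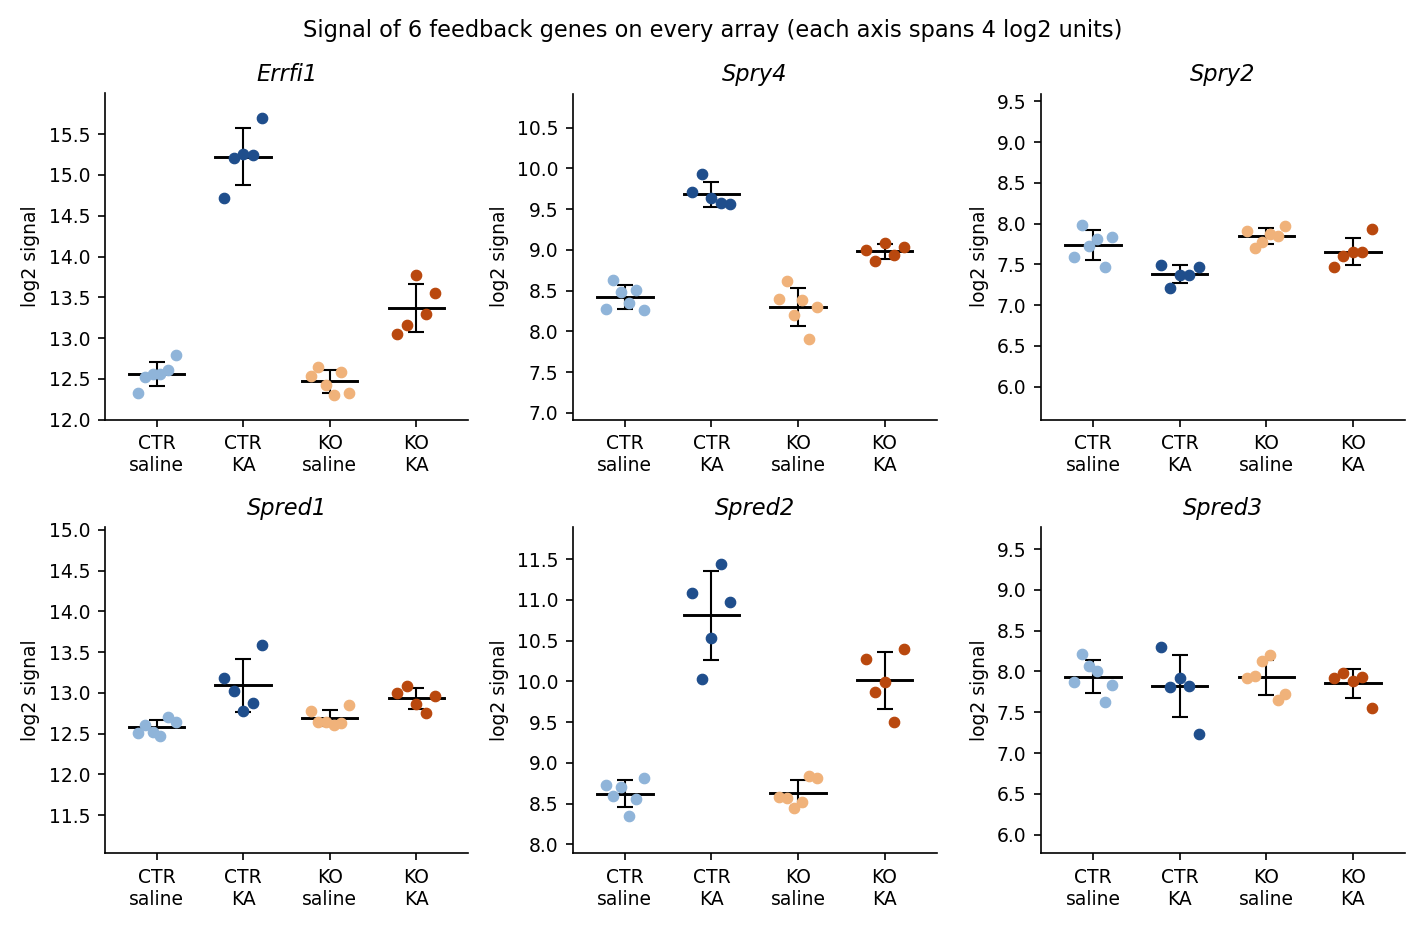
Log2 signal of the main probe of 6 genes in each of the 22 mice, by group (points), with the group mean (horizontal line) and SD (error bar). Each vertical axis spans 4 log2 units. Errfi1, Spry4 and Spred2 are higher after KA in both genotypes, and in Errfi1 and Spry4 no KO array after KA reaches the lowest CTR array after KA.

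Spry4 is a Sprouty protein that inhibits signalling from FGF and VEGF receptors to ERK. Its probe (ILMN_2825817) read between 8.26 and 8.63 in CTR mice given saline, with a median of 8.42. CTR mice given KA read 9.71, 9.93, 9.63, 9.57 and 9.56. KO mice ranged from 7.91 to 8.62 after saline, with a median of 8.34, and read 8.99, 8.86, 9.08, 8.94 and 9.03 after KA. Again KA and saline arrays did not overlap in either genotype, and all 5 KO arrays after KA were below all 5 CTR arrays after KA.

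In CTR mice Spry4 rose by 1.26 log2 units (standard error 0.10, adjusted p = 1.3e-09), or 2.40-fold, and by 0.68 in KO mice (standard error 0.10, adjusted p = 3.8e-05), or 1.60-fold. After KA it was lower in KO mice by 0.70 (adjusted p = 6.8e-05), or 1.62-fold. The genotypes differed by −0.12 after saline (95% confidence interval −0.32 to 0.08, adjusted p = 1.0). Its interaction was −0.58 (95% confidence interval −0.88 to −0.29, adjusted p = 0.017) and did not pass the threshold. It passed without KO saline replicate 5, whose Spry4 value of 7.91 was the lowest of its group (interaction −0.66, adjusted p = 0.0028), and with array weights (−0.66, adjusted p = 0.0053).

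Spry2, the Sprouty family member that binds the ubiquitin ligase Cbl, had a signal below the median of all signals. The CTR values (ILMN_2749464) were 7.46 to 7.98 after saline, median 7.77, and 7.49, 7.21, 7.37, 7.37 and 7.47 after KA. The KO values were 7.70 to 7.97 after saline, median 7.86, and 7.46, 7.60, 7.65, 7.65 and 7.93 after KA. Saline and KA arrays overlapped in both genotypes. In CTR mice the difference of −0.35 (standard error 0.09, adjusted p = 0.0042) was 1.28-fold and under the fold threshold, and in KO mice it was −0.19 (adjusted p = 0.20). With normexp background correction, chosen after seeing the data, the CTR difference was −0.59 (adjusted p = 0.0025) and was called. After KA the KO mean was 0.28 above the CTR mean (adjusted p = 0.065), and the interaction was 0.16 (95% confidence interval −0.10 to 0.43, adjusted p = 0.64).

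Spred2 belongs to the Spred family, membrane proteins with an EVH1 domain and a Sprouty-related domain that suppress Ras. By its main probe (ILMN_2590010) CTR mice ranged from 8.35 to 8.81 after saline, median 8.65, and read 11.08, 10.03, 10.53, 11.44 and 10.97 after KA. KO mice ranged from 8.45 to 8.84 after saline, median 8.58, and read 10.28, 9.87, 9.995, 9.51 and 10.40 after KA. KA arrays were above saline arrays in both genotypes. The KA arrays of the genotypes overlapped, because CTR replicate 2, at 10.03, lay below 2 of the 5 KO arrays.

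On this probe Spred2 rose by 2.19 in CTR mice (standard error 0.18, adjusted p = 3.1e-09), or 4.55-fold, and by 1.38 in KO mice (standard error 0.18, adjusted p = 9.6e-06), or 2.61-fold. Its rise in CTR mice held rank 144 of 21946. After KA it was lower in KO mice by 0.80 (standard error 0.19, adjusted p = 0.0069), or 1.74-fold, a call that was lost when only the KA groups entered the fit (adjusted p = 0.11). The interaction was also −0.80 (95% confidence interval −1.34 to −0.27, adjusted p = 0.085) and was not called. Without CTR KA replicate 2 it was −0.999 (adjusted p = 0.0069) and was called. After saline the genotypes differed by 0.01 (95% confidence interval −0.36 to 0.37, adjusted p = 1.0).

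The 3 Spred2 probes gave different sizes and did not agree on the genotype. ILMN_2969032 rose by 1.15 in CTR mice (adjusted p = 1.3e-05) and by 1.12 in KO mice (adjusted p = 5.9e-05), and its interaction was −0.03 (95% confidence interval −0.53 to 0.47, adjusted p = 0.97). ILMN_2598998 rose by 0.59 in CTR mice (adjusted p = 0.00015), which is 1.501-fold and just past the threshold. In KO mice its difference was 0.24 (adjusted p = 0.17), and its interaction was −0.35 (95% confidence interval −0.66 to −0.04, adjusted p = 0.26). After KA neither of them passed the test between genotypes, at −0.12 (adjusted p = 0.81) for ILMN_2969032 and −0.27 (adjusted p = 0.15) for ILMN_2598998. So all 3 probes were called higher after KA in CTR mice (7.37% of all probes), while the lower signal of KO mice after KA was called on 1 of 3, the brightest (3.1% of all probes). CTR KA replicate 2 was the lowest array of its group on all 3 probes, at 10.03, 8.58 and 8.47, and CTR KA replicate 4 the highest on all 3. All 3 probes are annotated to the same RefSeq transcript, and their positions on it were not looked up.

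**Figure D2:**
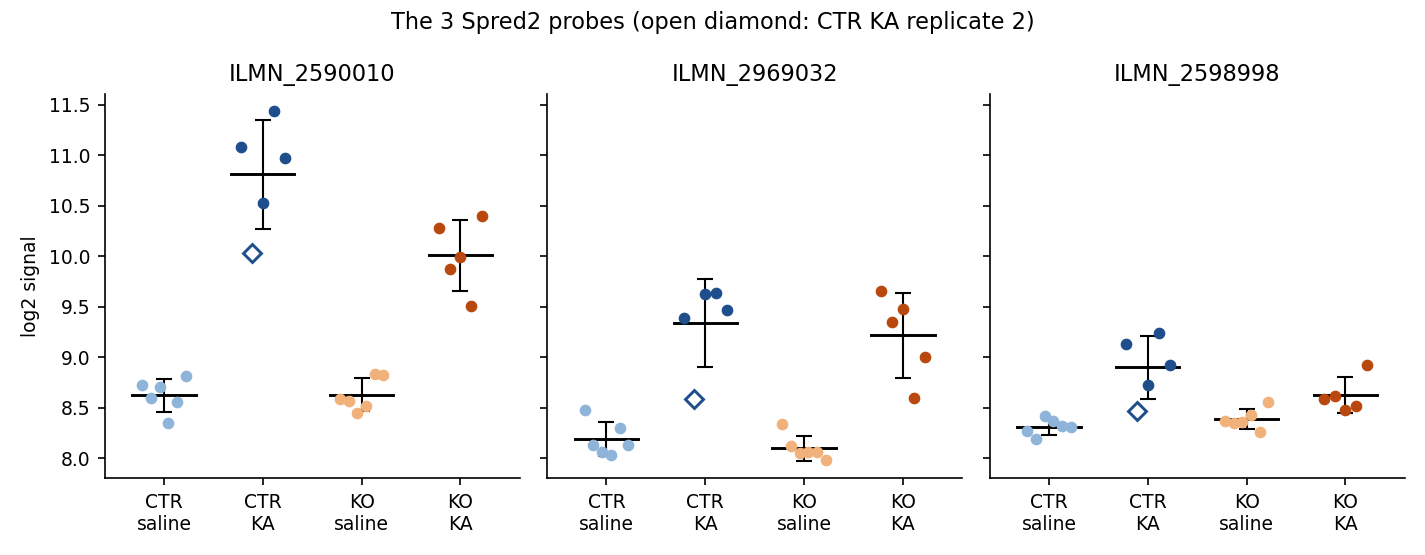
Log2 signal of the 3 Spred2 probes in each mouse, by group, with the mean (line) and SD (error bar) and a shared vertical axis. The open diamond is CTR KA replicate 2, lowest of its group on each probe, and the lower mean of KO than CTR mice after KA is widest on ILMN_2590010 (−0.80) and smallest on ILMN_2969032 (−0.12).

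Spred1, whose loss in humans causes Legius syndrome, a disorder of Ras signalling, had a bright probe (ILMN_2490252). In CTR mice it ranged from 12.48 to 12.70 after saline, median 12.57, and read 13.19, 13.03, 12.77, 12.87 and 13.59 after KA. In KO mice it ranged from 12.61 to 12.85 after saline, median 12.64, and read 13.00, 13.09, 12.86, 12.75 and 12.97 after KA. The CTR arrays after KA were all above those after saline, while the KO arrays overlapped. The CTR rise of 0.51 (standard error 0.11, adjusted p = 0.00057) was 1.43-fold, inside the fold threshold. It came to 0.59 without CTR KA replicate 3 (adjusted p = 0.00012), which is past the threshold, and to 0.39 at the lowest when single arrays were left out. In KO mice the difference was 0.24 (adjusted p = 0.15), and the interaction was −0.27 (95% confidence interval −0.58 to 0.04, adjusted p = 0.44).

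Spred3, whose Kit-binding domain is not functional, unlike those of Spred1 and Spred2, lay at the median of all signals. Its probe (ILMN_1218180) read between 7.24 and 8.31 over the 22 arrays. Its means were 7.94 ± 0.20 (SD, n = 6) and 7.82 ± 0.38 (SD, n = 5) in CTR mice after saline and KA. All 4 groups overlapped, and its differences were −0.11 for KA in CTR mice (95% confidence interval −0.41 to 0.18, adjusted p = 0.69) and −0.07 for KA in KO mice (95% confidence interval −0.37 to 0.22, adjusted p = 0.85). At this signal, a change of the transcript could be larger than the measured difference.

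**Figure D3:**
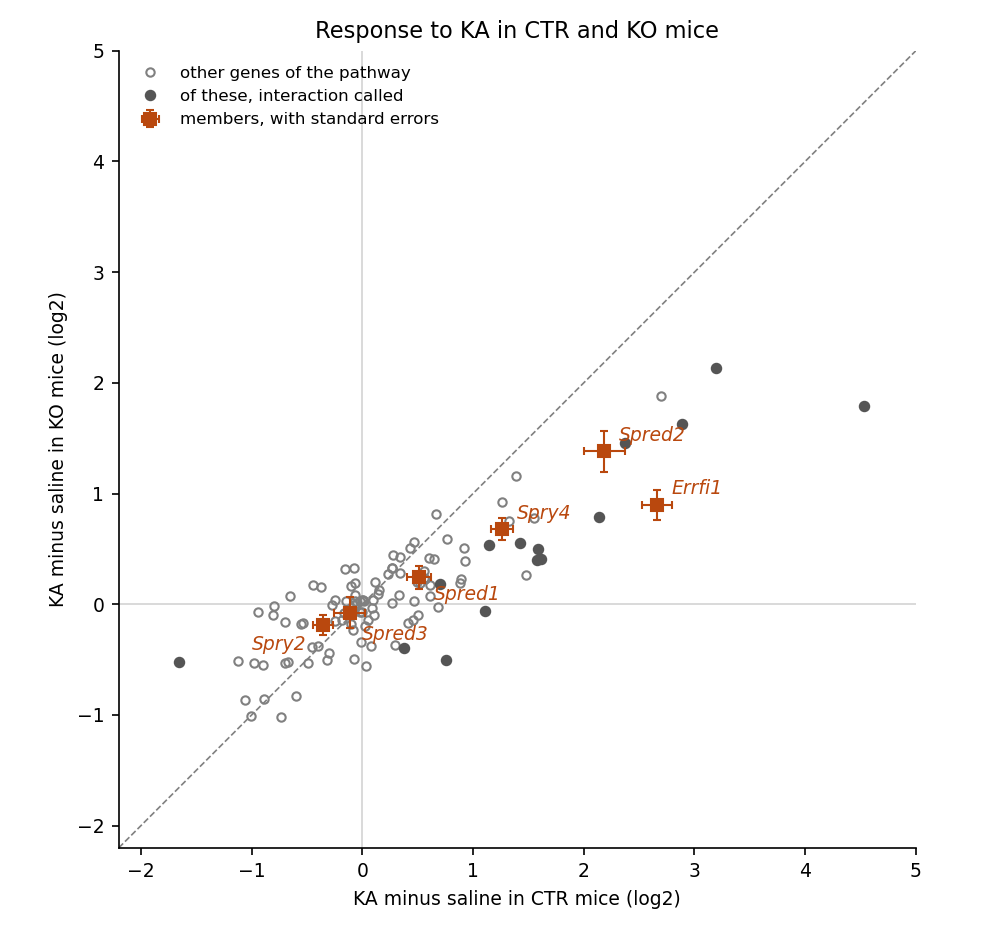
Difference between KA and saline on the log2 scale in CTR mice (horizontal) and in KO mice (vertical), for 6 members (squares, with standard errors) and 111 other genes of the receptor tyrosine kinase pathway (circles, filled where the interaction was called). Points under the dashed line of equal responses on the right have the smaller rise in KO mice, and Errfi1 at 2.66 and 0.90 is farther from it than Spry4 at 1.26 and 0.68.

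The other genes of the pathway were taken from 7 lists, of which 111 genes had a probe. After KA in CTR mice 28 of the 111 were higher and 16 lower, against 8.88% and 8.48% of all genes, with a median log2 difference of 0.09 against −0.01 over all genes. In KO mice 12 were higher and 5 lower, against 4.2% and 4.24% of all genes. After saline 0 were called by limma and 0 by the study's two-way test, and 3 had an unadjusted p under 0.05. After KA 4 were higher and 19 lower in KO than in CTR mice, against 2.62% and 3.74%, with a median of −0.13. The interaction was called for 15 of the 111, 14 toward a smaller or more negative response in KO mice (1.71% of all genes) and 1, Cblb, in the other direction (1.22%). The same shares of all genes apply to the counts of each list below, and whether a single list differs from them was not tested.

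Among 18 measured ligands of receptor tyrosine kinases, 6 rose and 1 fell in CTR mice, 4 rose and 1 fell in KO mice, and 6 were lower in KO mice after KA. Hbegf, a ligand of the EGF receptor, rose by 2.89 in CTR mice (adjusted p = 3.4e-12) and by 1.63 in KO mice (interaction −1.26, adjusted p = 0.0012). Bdnf, the ligand of the receptor TrkB, rose by 2.70 (adjusted p = 8.9e-12) and by 1.88 in KO mice (interaction −0.81, adjusted p = 0.035, not called). Vegfa, the endothelial growth factor, rose by 2.38 and 1.46 (interaction −0.92, adjusted p = 0.00056). Nrg1, a ligand of ErbB receptors, rose by 1.48 in CTR mice (adjusted p = 7.1e-06) and differed by 0.26 in KO mice (adjusted p = 0.55). Hgf, which binds the receptor Met, rose by 1.11 in CTR mice and differed by −0.06 in KO mice (interaction −1.17, adjusted p = 0.0064).

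Of 17 receptors, 3 rose in CTR mice and 1 in KO mice, and 2 were lower in KO mice after KA. Ntrk2, which encodes TrkB, rose by 1.58 in CTR mice (adjusted p = 1.1e-10) and differed by 0.40 in KO mice (adjusted p = 0.013, under the fold threshold), with an interaction of −1.18 (adjusted p = 4.2e-05). The FGF receptor genes Fgfr1 and Fgfr2 rose by 1.55 (adjusted p = 5.2e-09) and 0.93 (adjusted p = 6e-05) in CTR mice, and in KO mice Fgfr1 rose by 0.78 (adjusted p = 0.00023). Of 15 adaptors and exchange factors, 3 rose and 2 fell in CTR mice and 1 rose in KO mice. Frs3, an adaptor of FGF and nerve growth factor receptors, was lower by 0.79 (adjusted p = 0.011), and Rasgrp1, a Ras activator, by 0.66 (adjusted p = 0.0034), while Crkl and Crk, adaptors with SH2 and SH3 domains, rose by 0.76 (adjusted p = 0.00013) and 0.61 (adjusted p = 2.6e-05). Both Frs3 and Rasgrp1 were higher in KO than in CTR mice after KA.

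Of 13 Ras proteins and Ras inactivators, 3 rose and 4 fell in CTR mice, and 1 rose and 1 fell in KO mice. Rasa2, a Ras GTPase-activating protein, rose by 1.59 in CTR mice (adjusted p = 6e-08), and Rasa1, another, was lower by 1.13 (adjusted p = 1.5e-06). Rap1b, a Ras-related GTPase, rose by 1.14 in CTR mice (adjusted p = 2.7e-09), and Dab2ip, also a Ras inactivator, was lower by 0.81 (adjusted p = 0.00014). Rras2, a close relative of Ras, rose by 0.76 in CTR mice and differed by −0.50 in KO mice, which was under the fold threshold (interaction −1.26, adjusted p = 0.00036). Of 14 genes from Raf to ERK and its targets, 2 rose and 3 fell in CTR mice, and 1 rose and 2 fell in KO mice. Rps6ka3, the ERK-activated kinase RSK2, rose by 2.14 in CTR mice (adjusted p = 2.1e-11) and 0.78 in KO mice (interaction −1.36, adjusted p = 8.1e-05). Mapk3, which encodes ERK1, was lower after KA by 1.06 in CTR mice (adjusted p = 0.0008), and by 0.87 in KO mice (adjusted p = 0.01). Araf, a Raf kinase, was lower by 0.94 in CTR mice (adjusted p = 0.03) and Etv1, an ETS factor, by 0.89 (adjusted p = 9.3e-05). Etv5, another ETS factor, had an interaction of −0.52 (adjusted p = 0.0063).

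Other feedback inhibitors of receptors and ERK had the most called genes of the 7 lists in CTR mice, with 9 of 19 higher and 2 lower. It was also the list with the most genes measured. In KO mice 4 were higher, and after KA 6 were lower and 1 higher in KO than in CTR mice. The 6 include the Sprouty gene Spry3, lower by 0.59 (adjusted p = 0.018), which is 1.502-fold and just past the threshold. For KA it differed by 0.41 in CTR mice (adjusted p = 0.052) and by −0.17 in KO mice (adjusted p = 0.62). The interaction of Spry3 was −0.58 (adjusted p = 0.16) and was not called. Socs3, an inhibitor of cytokine receptors, rose by 4.53 in CTR mice (adjusted p = 3.6e-11) and by 1.79 in KO mice (interaction −2.74, adjusted p = 0.0002). Dusp4, a nuclear phosphatase of ERK, rose by 3.19 (adjusted p = 2e-12) and 2.14 (interaction −1.05, adjusted p = 0.0099). Rassf1, a Ras-association protein, rose by 1.62 in CTR mice (adjusted p = 2.6e-09) and had an interaction of −1.21 (adjusted p = 0.00036). Cblb, a ubiquitin ligase that degrades receptors, was lower by 1.66 in CTR mice (adjusted p = 9.5e-08) and differed by −0.52 in KO mice (adjusted p = 0.051), with an interaction of 1.14 (adjusted p = 0.0069).

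Among 15 partners and regulators of Sprouty, Spred and Errfi1 proteins, 2 rose and 4 fell in CTR mice, 1 fell in KO mice, and 0 were called between the genotypes after KA or in the interaction by limma or the two-way test, where 6 and 4 had an unadjusted p under 0.05. Arhgef2 was lower by 1.003 (adjusted p = 4.4e-06) in CTR mice and by 1.01 in KO mice (adjusted p = 1.3e-05). Lztr1, an adaptor for the ubiquitination of Ras proteins, was lower by 0.98 (adjusted p = 1.6e-06) and Caskin1, a synaptic scaffold, by 0.90 (adjusted p = 0.00061) in CTR mice. Mknk2, a kinase downstream of ERK, rose by 0.92 (adjusted p = 2.8e-08) in those mice.

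**Figure D4:**
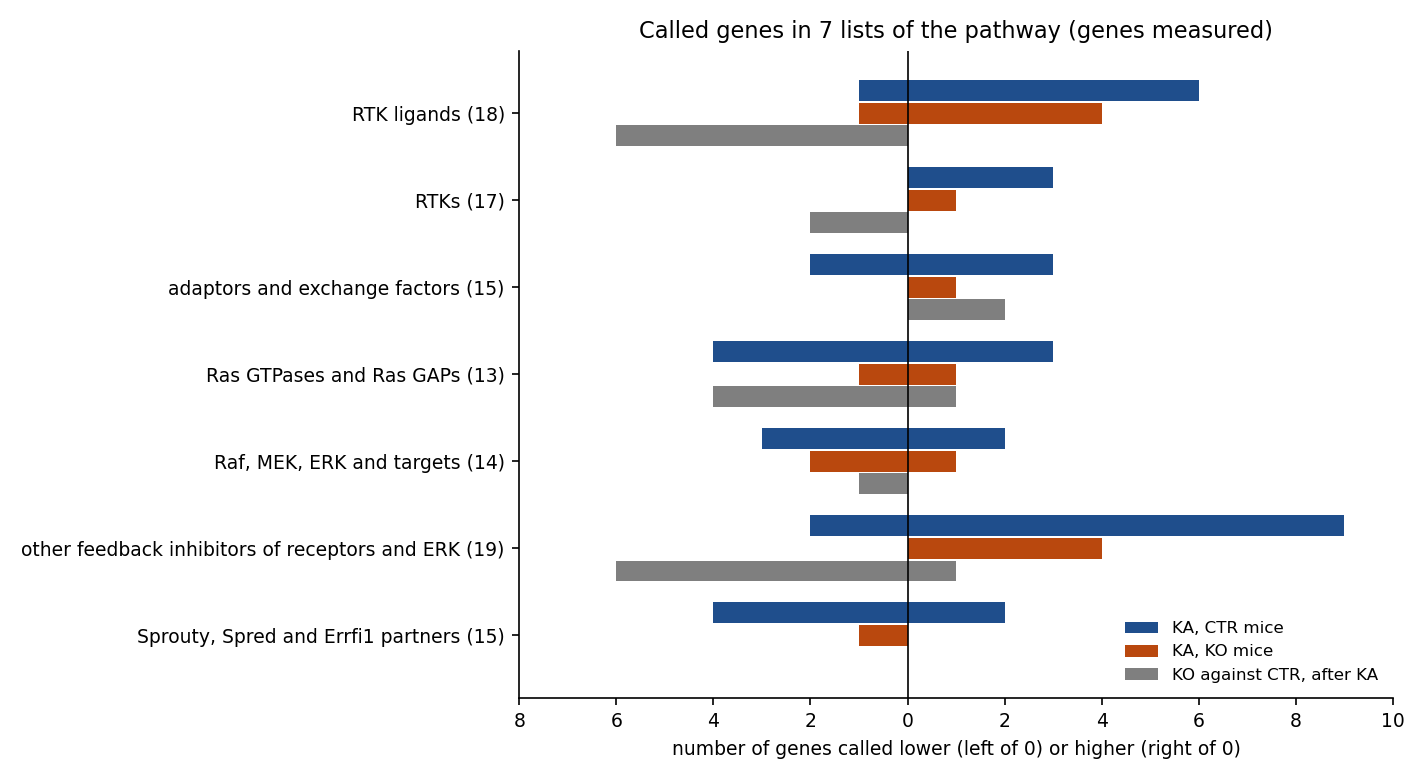
Number of genes called higher (right of 0) and lower (left of 0) in 7 lists of pathway genes, with the number measured in brackets after each list. Blue is KA against saline in CTR mice, orange the same in KO mice, and grey KO against CTR mice after KA. The list of other feedback inhibitors holds 9 genes higher in CTR mice, 4 higher in KO mice and 6 lower in KO than in CTR mice after KA. Of all genes, 8.88%, 4.2% and 3.74% were called so, in that order.

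The genes whose pattern over the 22 arrays was most like that of a called member were listed by Pearson's correlation, as a description, since the arrays share 4 group means. Errfi1 was closest to Cd14, an innate immune receptor, to Gadd45g, a growth arrest gene, and to Fos, the immediate-early factor, each at r = 0.98. Spry4 was closest to Nrp, Fosb and Egr1, each at r = 0.97. Spred2 was closest to Sec61a2 at r = 0.98, and to Vgf, a secreted neuropeptide precursor, and Rgs4, an inhibitor of G protein signalling, both at r = 0.97. Between the members themselves, r was 0.93 for Errfi1 and Spry4, 0.89 for Errfi1 and Spred2 and 0.88 for Spry4 and Spred2. Fos rose by 5.83 in CTR mice and by 2.36 in KO mice (interaction −3.47, adjusted p = 1.5e-05). Vgf rose by 3.46 and 2.14 (interaction −1.32, adjusted p = 0.0053).

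Markers of cell types were read beside these results. Lists for interneurons, oligodendrocytes and their precursors were read too and are not detailed here. Of 8 markers of CA1 and CA3 pyramidal cells, 1 (Fibcd1) was higher and 1 (Nr4a2) lower in KO than in CTR mice after KA. The mean of 3 choroid plexus markers varied widely between arrays after KA, from 9.46 to 13.05 in CTR mice and from 8.78 to 13.50 in KO mice. The DG granule cell markers Prox1 and C1ql2 were bright in every group, with group means of 11.98 to 13.52 and 13.80 to 15.45, while Calb1 (7.27 to 7.36) and Stxbp6 (7.40 to 7.49) lay near the low end. Of the 9 granule cell markers, 2 were higher and 2 lower after KA in CTR mice, and 3 were higher and 2 lower in KO than in CTR mice after KA. In CTR mice those higher were Prox1 (1.33) and Tdo2 (0.93), and those lower C1ql2 (−1.66) and Dsp (−3.03). Of all genes, 8.88% were called higher and 8.48% lower after KA in CTR mice. Between the genotypes after KA these shares were 2.62% higher and 3.74% lower in KO mice. Of 9 endothelial and pericyte markers, 2 were lower in KO than in CTR mice after KA, with a median difference of −0.35. The mean log2 signal of that list per array was 10.23 to 10.93 in CTR mice and 10.005 to 10.74 in KO mice after KA. Of 8 microglial markers, 3 were lower after KA in CTR mice, where the mean of the list went from 9.96 to 10.30 after saline to 9.42 to 9.91 after KA. In KO mice 1 was lower, and that mean was 9.95 to 10.26 after saline and 9.63 to 9.99 after KA. Astrocyte markers had 2 of 9 higher and 1 lower in CTR mice after KA, with a range of 12.61 to 12.88 after saline and 12.95 to 13.22 after KA. In KO mice 1 was higher and 1 lower, with 12.78 to 12.94 after saline and 12.83 to 13.01 after KA. Of all genes, 4.2% were called higher and 4.24% lower after KA in KO mice. The part of these shifts, and of the choroid plexus spread, in the values of Errfi1, Spry4 and Spred2 was not tested.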

How the data were processed

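The deposited log2 values of 22 arrays were used as given. Per the methods, the authors subtracted background, quantile normalized and log2-transformed the signals with the BeadArray package. A second deposited table, of intensity values on a linear scale, was not used for results. It was already quantile normalized, and 16 of its 22 columns matched another array than the one they are named for (r of at least 0.9997 with that other array and at most 0.9952 with any further one), whereas in the log2 table all CTR arrays exceeded all KO arrays in Srf. Gene symbols came from the platform annotation, updated through RefSeq gene identifiers and accessions (937 probes changed). Of 46237 probes, 35784 had a symbol. Platform annotation had no probe for Spry1, and the start-site window of Spry4 is not used here.

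The means of the 4 groups were fitted for all probes with limma 3.58.1 in R 4.3.3 (18 residual degrees of freedom), with Benjamini-Hochberg adjustment over all probes. The number of arrays limits the precision. No detection p was used, and no probe was filtered in the results reported. The script was tested on simulated data. Alternatives were a filter on dim probes, only the compared groups in the fit, two-way ANOVA with Tukey's test, array weights, a variance trend, the replicate number as a block, each array left out, any probe of a gene and normexp on the linear values of the log2 table. The members, the gene lists and the marker lists were chosen with earlier results of these data known. Named by rule were all members with all their probes, up to 4 genes of each pathway list with the largest called change after KA in CTR mice, up to 2 with the largest called interaction, and the 3 genes most correlated with each called member. Cd14, Gadd45g, Nrp and Sec61a2 are among the latter. Spry3 was named outside this rule, as a Sprouty gene that is not a member.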

Additional observations from a re-analysis of the deposited data

Results flagged for a closer look

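In 2 of 32 groups of values, the 4 groups of each of the 8 probes, 1 array lay far from the others of its group, where chance gives about 1 in 20. Spred3 in KO KA replicate 5 was 7.55, and the next array of that group was 7.88. Replicate 5 was also the lowest Spred3 array of the other groups, at 7.63 (CTR saline), 7.24 (CTR KA) and 7.66 (KO saline). Spred2 probe ILMN_2969032 in CTR KA replicate 2 was 8.58, and the next was 9.39. The same mouse was lowest of its group on the other Spred2 probes. The response of Errfi1 differed between CTR and KO mice by the test of the interaction (−1.77), with all 5 KO arrays after KA below all 5 CTR arrays after KA.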

How the results depend on the processing

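The interaction was called for 2 genes with array weights (Errfi1 and Spry4) and for 1 to 2 when each array was left out, with Spred2 joining Errfi1 without CTR KA replicate 2 and Spry4 joining it without KO saline replicate 5. Errfi1, Spry4 and Spred2 kept their calls for KA in both genotypes under all 29 alternatives, and Errfi1 and Spry4 also for the genotypes after KA. There Spred2 lost its call in 1 of 29 (adjusted p = 0.11, only the compared groups in the fit). The Errfi1 interaction was called under all 28 alternatives run for it. Values that turned in sign were uncalled and near 0. With array weights these were the saline difference of Spred2 (−0.0197) and of Spred3 (0.0416) and the interaction of Spred3 (−0.0027). With each array left out, the saline difference ran from −0.0497 to 0.0433 for Spred2 and from −0.0682 to 0.0482 for Spred3. For Spred3 the KA difference ran from −0.236 to 0.0304 in CTR mice and from −0.129 to 0.0017 in KO mice, the difference between genotypes after KA from −0.111 to 0.155, and the interaction from −0.105 to 0.162. With normexp, the Spry2 difference between genotypes after KA was 0.46 and still not called. Among all probes, 2209 were called between the genotypes after KA, and 1463 with only the compared groups in the fit. The interaction was called for 966 probes, for 613 by two-way ANOVA and for 1576 with array weights, and for 15 of the 111 pathway genes, or 9 by two-way ANOVA. After saline 1 probe was called by limma and up to 5 by the alternatives.

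Deviations from the group means correlated at a median r of 0.11 (range −0.27 to 0.37) between mice with the same replicate number. Between other mice the median was −0.01 (range −0.46 to 0.57). Mice with the same number were slightly more alike at the median, with overlapping ranges. This does not settle whether the number marks a shared batch, and the main fit did not pair the mice by it. With the number as a replicate block, 3, 3, 0, 3 and 1 members were called in the 5 comparisons, and the Errfi1 interaction was −1.77. Normexp and quantile normalization of the linear table were not run, because its columns do not match the arrays. Chip as a block was not run, since chips are not given in the sources used here. The dim-probe filter left Spry2 out. Spry2 and Spred3 lay near the low end of the signal, where a fold change may be understated.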
